A study of Homo sapiens with 12 samples.

Results

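The genes followed here are the 10 main histone acetyltransferases, EP300, CREBBP, KAT2A, KAT2B, HAT1, KAT5, KAT6A, KAT6B, KAT7 and KAT8. They were chosen by symbol, each symbol matched 1 row, and they are 10 of the 58278 genes listed for every library. mRNA was measured in HK2 cells, an immortalised human cell line derived from proximal tubular epithelium, in 12 libraries made from 6 groups of 2 biological replicates. Untreated cells formed the group Ctrl, and cells given TNF-α (5 ng/mL, 3 h), a cytokine that induces inflammation, formed the group TN. The other groups received the same TNF-α and, for 24 h, a short-chain fatty acid (SCFA), a product of gut bacteria. PRTN and BUTN received propionate (15 mM) or butyrate (3 mM) before TNF-α, and TNPR and TNBU received propionate (15 mM) or butyrate (3 mM) after it. The source label of every treated library gives TNF-α and the SCFA, and these were used, although a general note on treatment mentions thapsigargin and JQ1. No group given an SCFA alone was analysed here, and the labels do not say whether the TN cells were kept in culture for as long as the SCFA groups.

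Histone acetyltransferases transfer an acetyl group from acetyl-CoA to lysines of histone tails, a mark found at active enhancers and promoters and removed by histone deacetylases. EP300 and CREBBP (p300 and CBP) are a pair of large coactivators, KAT2A (GCN5), KAT2B (PCAF) and HAT1 belong to the GNAT family, and KAT5 to KAT8 are the MYST family (TIP60, MOZ, MORF, HBO1 and MOF). Most act inside multi-subunit complexes that hold the enzyme on chromatin. Butyrate, and more weakly propionate, are known inhibitors of histone deacetylases, and several acetyltransferases also acetylate other proteins, among them NF-κB subunits downstream of TNF-α.

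Each library held 27269986 to 33851130 expected counts, the estimated reads per gene, in all. Levels are given as CPM, the counts brought to a common library size with TMM scaling, and 3 counts corresponded to 0.0867 to 0.112 CPM. A gene was called up or down where the limma-voom fit of all 12 libraries gave a difference of more than 1.5-fold with an adjusted p below 0.05 over the 24342 genes tested, and all 10 acetyltransferases were among these. The replicates of TNBU and TNPR differed most, with a chi-square per gene of 18.1 and 15.1 against 3.17 to 6.61 in the other groups. Each call of an acetyltransferase that changed without 1 of these libraries is therefore given with and without it. All other genes, and the ratios between genes, were read with all 12 libraries only. Of the 14 epithelial and tubular markers, KRT8 (701 to 1437 CPM), PAX8 (128 to 414 CPM) and GGT1 (59.95 to 221 CPM) were present in every library. PAX8 and GGT1 were called down in each SCFA group vs TN. KRT19 ranged from 4.47 to 121 CPM, CDH1 from 0.0745 to 14.4 CPM and PAX2 from 0.0717 to 1.09 CPM. At their lowest, CDH1 and PAX2 lay under the level of 3 counts. Among proximal tubule genes, ANPEP (at most 2.51 CPM), LRP2 (at most 0.991 CPM) and SLC34A1 (at most 0.0867 CPM) were low or absent. CUBN (1.27 to 3.64 CPM) and AQP1 (0.359 to 15.1 CPM) were detected in every library. In such bulk samples fewer cells of a type and less RNA per cell cannot be told apart.

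The RefSeq promoter table (GRCh38.p14) gave 250-base windows upstream of annotated starts for 8 of the 10 genes, 11 windows in all. KAT6A and KAT8 were not matched. The windows of EP300, CREBBP, KAT2B and HAT1 held 27 to 46 CpG dinucleotides, the 3 windows of KAT6B held 13 to 31, and those of KAT5, KAT7 and KAT2A held 19, 14 and 11, beside a median of 11 and quartiles of 3 and 23 over the 35116 windows of the table. The letters CCGGAAG, a core recognised by ETS factors, were searched on both strands and stood in the windows of KAT5 (2 matches, starting 36 and 11 bases before the RefSeq start), KAT7 (1 match) and HAT1 (1 match), and 8.52% of all windows held them. TGACG, the core of the cAMP response element, stood in the windows of CREBBP (2 matches), KAT2A (1), KAT5 (3), KAT7 (2) and HAT1 (2), and 21.2% of all windows held it. Neither was found in the windows of EP300, KAT2B and KAT6B. Both motifs hold a CpG, and the shares over all windows were not matched for CpG content.

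The following stretches are shown because CREBBP, KAT5 and KAT7 fell with SCFAs whereas KAT2A and HAT1 were not called. They read 5′ to 3′ on the strand of the gene, with both motifs in capitals on either strand (CTTCCGG and CGTCA are the reverse complements). The KAT2A window and the upstream one of the 2 CREBBP windows are whole and lie before the first annotated base of these genes (the other CREBBP window, which lies within the gene, is not shown), and the HAT1 window is given up to the first annotated base of the gene. Of the KAT5 and KAT7 windows, which lie wholly (KAT5) or partly (KAT7) within the annotated gene, a 30-base site is given. The positions on GRCh38.p14 are chr16:3880714-3880963 (minus strand) for CREBBP, chr17:42121368-42121617 (minus strand) for KAT2A, chr2:171922211-171922447 (plus strand) for HAT1, chr11:65712208-65712237 (plus strand) for KAT5 and chr17:49788618-49788647 (plus strand) for KAT7.
CREBBP: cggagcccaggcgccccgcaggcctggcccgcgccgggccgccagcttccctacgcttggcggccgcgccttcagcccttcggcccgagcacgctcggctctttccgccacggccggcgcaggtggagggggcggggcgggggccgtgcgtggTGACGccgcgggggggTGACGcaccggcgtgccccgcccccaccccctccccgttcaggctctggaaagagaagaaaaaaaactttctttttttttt
KAT2A: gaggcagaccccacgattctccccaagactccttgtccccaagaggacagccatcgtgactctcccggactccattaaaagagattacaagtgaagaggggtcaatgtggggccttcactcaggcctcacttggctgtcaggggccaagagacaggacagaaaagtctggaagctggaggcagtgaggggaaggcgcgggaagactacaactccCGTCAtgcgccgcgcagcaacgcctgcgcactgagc
HAT1: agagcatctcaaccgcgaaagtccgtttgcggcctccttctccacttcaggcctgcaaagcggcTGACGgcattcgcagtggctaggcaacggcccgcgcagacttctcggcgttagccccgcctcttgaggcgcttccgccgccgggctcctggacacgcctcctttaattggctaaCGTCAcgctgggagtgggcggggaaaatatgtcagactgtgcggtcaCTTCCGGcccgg
KAT5: gctcggtcCCGGAAGTGACGtctcccagag
KAT7: CGTCAggTGACGcgagacccagCCGGAAGt
In the KAT5 site the ETS core and TGACG stand next to each other without sharing a base, and in the KAT7 site they are separated by 10 bases. HAT1, which was not called, held both motifs, and EP300 and KAT6B, which fell, held neither.

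TNF-α alone moved none of the 10 genes past the thresholds, in a comparison where 1.3% of all tested genes were called. The log2 fold changes of TN vs Ctrl ran from -0.26 for KAT6B (SE 0.0678, adjusted p = 0.0626) to 0.15 for HAT1 (SE 0.0617, adjusted p = 0.239). The median over the 10 genes was -0.10 beside -0.01 over all genes. At an unadjusted p under 0.05 there were 4 of 10 (KAT6B, KAT2A and KAT8 lower, HAT1 higher), beside 17% of all tested genes, and edgeR and DESeq2 also called 0. The libraries of the 2 groups did not overlap for 6 of the 10 genes, beside 46.8% of all tested genes.

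With SCFAs, 5 of the 10 genes (EP300, CREBBP, KAT5, KAT6B and KAT7) were called down against TN in all 4 groups, and KAT8 in PRTN and TNBU. No member was called up. This made 6 genes down in PRTN vs TN, where 16.7% of all tested genes were called down, 5 in BUTN (14.8%), 5 in TNPR (16.9%) and 6 in TNBU (16.5%). Among genes of 10 CPM or more, a range that holds every member except KAT2B, these shares were 23.2%, 21%, 24.8% and 24.7%. Down calls in all 4 comparisons came to 11.9% of all tested genes and 18.7% of those of 10 CPM or more. For the 10 genes the median of the log2 fold changes was -0.73 (PRTN), -0.56 (BUTN), -0.76 (TNPR) and -0.73 (TNBU), beside 0.09, 0.08, 0.12 and 0.09 over all genes. Over genes of 10 CPM or more the median was -0.11, -0.13, -0.12 and -0.14. The 4 comparisons share the TN libraries, so they are not independent of each other. TNPR and TNBU received the SCFA for 24 h after TNF-α, so the time from TNF-α to harvest may also differ from TN. In these 2 groups it cannot be told apart from the SCFA. With library size alone as scaling, the median of all genes stood higher by 0.16, 0.15, 0.17 and 0.20 on the log2 scale, and 5, 4, 5 and 5 members were called down. The calls over all genes were then 6785 up and 3127 down in PRTN (5824 and 4057 with TMM), 6579 and 2656 for BUTN (5620 and 3613), 7232 and 3132 for TNPR (6067 and 4117) and 7329 and 2849 for TNBU (6094 and 4027). Library groups did not overlap for 8 of the 10 genes in PRTN, BUTN and TNBU and for 9 in TNPR, beside 78.2%, 77.4%, 75.7% and 76.6% of all genes, close to the share among the members.

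**Figure D1:**
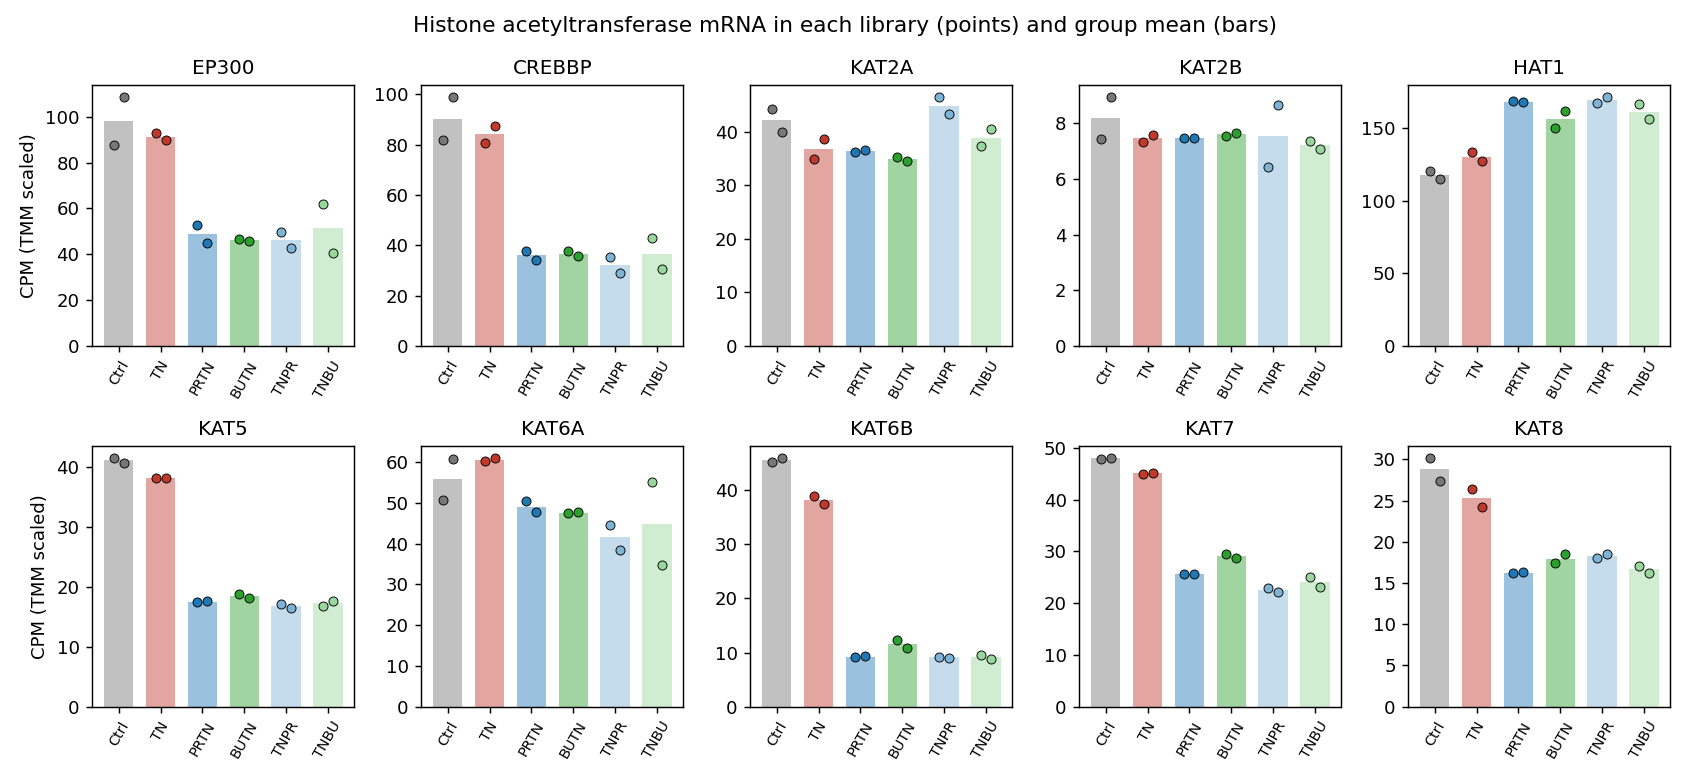
Level of each acetyltransferase mRNA (vertical axis, TMM-scaled CPM from 0) in the 6 groups, with 1 point per library and bars at the mean of 2 replicates. KAT6B stands at 37.4 to 46.0 CPM in Ctrl and TN and at 8.86 to 12.3 CPM in the 8 SCFA libraries, whereas HAT1 stands higher in the SCFA libraries and KAT2B at a similar level throughout.

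KAT6B (chromosome 10, 74824927 to 75032624, GRCh38, plus strand), the catalytic subunit of the MORF complex and a gene mutated in developmental syndromes, had the largest fall of the family. It read 45.3 and 46.0 CPM in Ctrl, 39.0 and 37.4 for TN, 9.18 and 9.28 for PRTN, 12.3 and 10.8 for BUTN, 9.24 and 9.06 for TNPR and 9.56 and 8.86 for TNBU. All 8 SCFA libraries lay below all 4 libraries without SCFA, and the BUTN pair was the highest of the SCFA groups. Against TN the log2 fold changes were -2.05 in PRTN (SE 0.0852, adjusted p = 2.04e-09), -1.73 in BUTN (SE 0.081, adjusted p = 7.26e-09), -2.06 in TNPR (SE 0.0862, adjusted p = 1.96e-09) and -2.05 in TNBU (SE 0.0885, adjusted p = 3.08e-09), which is 3.31 to 4.17-fold lower.

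KAT6A (chromosome 8, 41929479 to 42051994, minus strand), its close paralogue and the catalytic subunit of the MOZ complex, was not called. Its libraries read 50.8 and 60.7 CPM in Ctrl, 60.2 and 61.0 for TN, 50.4 and 47.8 for PRTN, 47.4 and 47.8 for BUTN, 44.7 and 38.5 for TNPR and 55.1 and 34.7 for TNBU. Every SCFA library was below both TN libraries, but TNBU replicate 1 lay within the Ctrl range and the TNBU replicates were far apart. The log2 fold changes against TN were -0.30 (adjusted p = 0.12), -0.35 (0.0799), -0.55 (0.0109) and -0.47 (0.0234) in PRTN, BUTN, TNPR and TNBU, all under 1.5-fold. Without TNBU replicate 1 the value in TNBU was -0.84 and was called (likewise against Ctrl, at -0.70), without TNBU replicate 2 it was -0.16, and without TNPR replicate 1 the value in TNPR was -0.70 and was called.

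KAT5 (chromosome 11, 65711996 to 65719604, plus strand), the catalytic subunit of the NuA4/TIP60 complex, which acts in transcription and in the DNA damage response, fell in all 4 SCFA groups. Its libraries read 41.5 and 40.8 CPM in Ctrl, 38.1 and 38.2 for TN, 17.4 and 17.6 for PRTN, 18.8 and 18.2 for BUTN, 17.1 and 16.4 for TNPR and 16.9 and 17.7 for TNBU. The replicates were close together in every group, and the 8 SCFA libraries did not reach the levels of the other 4. Log2 fold changes against TN were -1.12 (SE 0.0675), -1.05 (SE 0.0671), -1.18 (SE 0.0684) and -1.14 (SE 0.0693) in PRTN, BUTN, TNPR and TNBU, with adjusted p from 2.38e-08 to 7.72e-08. KAT5 shares 1439 bases of exon with RNASEH2C on the opposite strand, whose summed count was 90.5% of that of KAT5 and which was not called in any comparison (log2 fold changes of -0.37 to -0.12 against TN). The kit marked strand, but the strand setting of the counting is not given in the sources used here. If it was not used, reads of the shared stretch cannot be told apart.

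KAT7 (chromosome 17, 49788624 to 49835026, plus strand), the HBO1 enzyme that acetylates histone H3 and H4 and is known for its role at replication origins, read 48.0 and 48.0 CPM in Ctrl, 44.96 and 45.20 for TN, 25.6 and 25.7 for PRTN, 29.4 and 28.7 for BUTN, 22.8 and 22.1 for TNPR and 25.1 and 23.1 for TNBU. No SCFA library overlapped the others, and again BUTN stood highest among the SCFA groups. Its log2 fold changes against TN were -0.82 in PRTN (adjusted p = 4e-07), -0.63 in BUTN (3.9e-06), -1.003 in TNPR (7.98e-08) and -0.91 in TNBU (2.24e-07). With library size alone as scaling the value in BUTN was -0.48, under 1.5-fold. KAT7 shares 226 bases of exon with FAM117A on the opposite strand, which was called up in all 4 comparisons with TN (log2 fold changes of 0.84 to 0.97), and the part of shared reads was not tested.

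KAT8 (chromosome 16, 31114489 to 31131393, plus strand), the enzyme of the MSL and NSL complexes, lay near the 1.5-fold threshold. The libraries read 30.1 and 27.4 CPM in Ctrl, 26.4 and 24.3 for TN, 16.2 and 16.3 for PRTN, 17.4 and 18.5 for BUTN, 18.0 and 18.5 for TNPR and 17.1 and 16.2 for TNBU. All SCFA libraries were below all others. It was called down in PRTN (log2 fold change -0.64, adjusted p = 2.66e-05) and TNBU (-0.60, adjusted p = 5.03e-05), and not in BUTN (-0.50, adjusted p = 0.00022) or TNPR (-0.47, adjusted p = 0.00029), where the fold change was 1.41 and 1.39. These calls moved with single libraries and with the scaling. The value in TNBU was -0.56 without TN replicate 1 and that in BUTN was -0.59, and called, without TN replicate 2. With library size alone as scaling KAT8 read -0.48 in PRTN and -0.41 in TNBU, under the threshold.

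CREBBP (chromosome 16, 3725054 to 3880713, minus strand), which encodes the coactivator CBP, fell in all 4 groups. It read 81.9 and 98.8 CPM in Ctrl, 80.7 and 87.4 for TN, 37.6 and 34.3 for PRTN, 37.6 and 35.8 for BUTN, 35.5 and 29.1 for TNPR and 42.7 and 30.7 for TNBU. The highest SCFA library, TNBU replicate 1, was still well below the lowest TN library. Log2 fold changes against TN were -1.22 (SE 0.138, adjusted p = 7.82e-06) in PRTN, -1.19 (SE 0.138, adjusted p = 1.12e-05) in BUTN, -1.38 (SE 0.14, adjusted p = 2.88e-06) in TNPR and -1.22 (SE 0.14, adjusted p = 9.59e-06) in TNBU.

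EP300 (chromosome 22, 41092592 to 41180077, plus strand), which encodes p300, changed in the same direction with a smaller estimate. The libraries read 87.7 and 108 CPM in Ctrl, 92.7 and 89.7 for TN, 52.89 and 44.97 for PRTN, 46.6 and 45.9 for BUTN, 49.6 and 42.8 for TNPR and 62.0 and 40.6 for TNBU. Both groups without SCFA lay above every SCFA library, and the TNBU replicates were the farthest apart. The log2 fold changes against TN were -0.90 (SE 0.158, adjusted p = 0.000342), -0.98 (SE 0.159, adjusted p = 0.000205), -0.98 (SE 0.16, adjusted p = 0.000175) and -0.86 (SE 0.16, adjusted p = 0.000504) in PRTN, BUTN, TNPR and TNBU. In TNBU the value was -0.58 without TNBU replicate 2, just under 1.5-fold, and -1.20 without TNBU replicate 1.

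EP300, CREBBP and KAT6A, all with over 8 kb of merged exon, differed between the TNBU replicates. The median log2 difference between TNBU replicates 1 and 2 was 0.14 for genes with over 8 kb and -0.10 for those under 2 kb, among genes of 10 CPM or more. The difference was larger than this for EP300 (0.61), CREBBP (0.48) and KAT6A (0.67). For KAT7 and KAT6B, also over 8 kb, it was 0.12 and 0.11. Long genes were also called down more often than short ones, 25.8% against 17.8% in PRTN vs TN and 27.6% against 19.2% in TNBU vs TN. The part of length in the members' values was not tested. Of the members called down in all 4 groups, KAT6B had 32.5 kb of merged exon, KAT7 16.6, CREBBP 15.5, EP300 11.7 and KAT5 3.73 kb. Of those called in none, KAT6A had 24.1 kb, HAT1 6.79, KAT2B 5.21 and KAT2A 3.78 kb.

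HAT1 (chromosome 2, 171922448 to 171983686, plus strand), which acetylates newly made histone H4 before it is assembled into chromatin, was the only member higher than TN in every SCFA library. It read 120 and 115 CPM in Ctrl, 134 and 127 for TN, 168 and 168 for PRTN, 150 and 162 for BUTN, 167 and 171 for TNPR and 166 and 156 for TNBU. The differences from TN, at log2 fold changes of 0.37 (SE 0.0598, adjusted p = 0.00018), 0.26 (SE 0.0601, adjusted p = 0.00266), 0.38 (SE 0.0599, adjusted p = 0.000149) and 0.31 (SE 0.0604, adjusted p = 0.000836) in PRTN, BUTN, TNPR and TNBU, were 1.2 to 1.3-fold and therefore were not called.

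KAT2A and KAT2B, the alternative enzymes of the SAGA and ATAC complexes, were not called in any comparison. KAT2A (chromosome 17, 42113111 to 42121367, minus strand) read 44.2 and 39.9 CPM in Ctrl, 34.8 and 38.7 for TN, 36.1 and 36.5 for PRTN, 35.2 and 34.6 for BUTN, 46.4 and 43.3 for TNPR and 37.2 and 40.5 for TNBU. Its values overlapped TN in PRTN, BUTN and TNBU, and both TNPR libraries lay above TN (log2 fold change 0.29, adjusted p = 0.00774, 1.22-fold). KAT2B (chromosome 3, 20040446 to 20154404, plus strand) was the member with the lowest CPM in Ctrl, at 7.42 and 8.93, and ranged from 6.43 to 8.64 in the other 10 libraries. For KAT2B the log2 fold changes against TN were between -0.05 and 0.03, with 95% intervals that reached from -0.37 to 0.34. Changes within those bounds are not excluded by these libraries.

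Against Ctrl the members behaved much as against TN. In each SCFA group the same 6 genes (EP300, CREBBP, KAT5, KAT6B, KAT7 and KAT8) were called down and none up, beside 16.9%, 14.9%, 16.8% and 16.5% of all genes called down in PRTN, BUTN, TNPR and TNBU. KAT6B read -2.30, -1.98, -2.32 and -2.31, and CREBBP read -1.32, -1.29, -1.48 and -1.31 on the log2 scale. KAT8, which was 1.39 to 1.56-fold lower than TN, was 1.57 to 1.77-fold lower than Ctrl (log2 fold changes of -0.82 to -0.66, adjusted p from 2.44e-06 to 1.58e-05). HAT1 was 1.33 to 1.44-fold higher than Ctrl, again under the threshold. With library size alone as scaling, KAT8 was no longer called in BUTN (-0.58) and TNPR (-0.54), and HAT1 was called up in PRTN (0.62), TNPR (0.64) and TNBU (0.59).

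The time of SCFA addition was compared for each SCFA, and no member was called in TNPR vs PRTN or TNBU vs BUTN, where 0.16% and 0.267% of all tested genes were. The time from TNF-α to harvest differed between these groups as well, so it cannot be told apart from the time of SCFA addition. edgeR and DESeq2 also called 0. At an unadjusted p under 0.05 there were 2 of 10 members in each comparison, beside 11.2% and 14.4% of all tested genes. They were KAT2A (log2 fold change 0.30, 95% interval 0.14 to 0.47, adjusted p = 0.175) and KAT7 (-0.19, interval -0.34 to -0.04, adjusted p = 0.341) for propionate, and KAT6B (-0.32, interval -0.54 to -0.11, adjusted p = 0.165) and KAT7 (-0.27, interval -0.42 to -0.12, adjusted p = 0.0943) for butyrate. For CREBBP the interval reached from -0.48 to 0.16 with propionate and from -0.34 to 0.30 with butyrate. Libraries of the early and late groups did not overlap for 5 and 6 of the 10 genes, beside 43.2% and 43% of all genes. Propionate and butyrate were given at different concentrations (15 mM and 3 mM), so their values above stand side by side without a test.

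Within paralogue pairs the balance shifted for KAT6B and KAT6A and, by less, for CREBBP and EP300. Levels of different genes were compared per kb of merged exon, and the log2 ratio of KAT6B to KAT6A was -0.71 ± 0.17 in Ctrl, -1.09 ± 0.054 in TN, -2.84 ± 0.065 for PRTN, -2.47 ± 0.14 for BUTN, -2.61 ± 0.13 for TNPR and -2.68 ± 0.40 for TNBU (SD, n = 2). All SCFA libraries had a lower ratio than all others. The ratio of CREBBP to EP300 lay at -0.52 in Ctrl and TN and at -0.93 to -0.74 in the SCFA groups, again lower in all SCFA libraries than in all others. That of KAT2A to KAT2B ranged from 2.66 to 3.05 without separating the groups. The pairs were chosen after the values were seen, and the ratios are a description without a test.

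**Figure D2:**
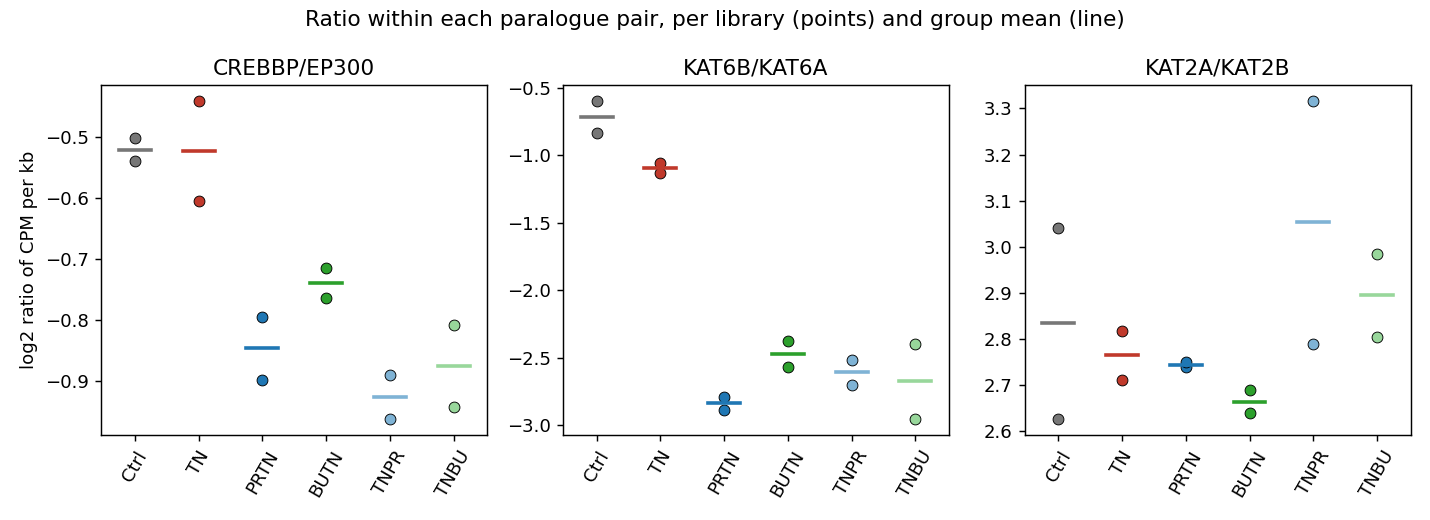
Log2 ratio of CPM per kb within 3 paralogue pairs (vertical axes, each with its own range), with 1 point per library and a line at the group mean of 2 replicates. KAT6B/KAT6A goes from -0.71 in Ctrl and -1.09 in TN to between -2.84 and -2.47 in the SCFA groups. CREBBP/EP300 goes from -0.52 in Ctrl and TN to between -0.93 and -0.74, and KAT2A/KAT2B shows no such separation.

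The order of the members depends on the length used, here the union of all annotated exons, which can hold bases that the expressed transcripts lack. Per kb of this length, HAT1 was the most abundant member in Ctrl (17.3 ± 0.51 CPM per kb), followed by KAT2A (11.1 ± 0.80) and KAT5 (11.02 ± 0.14), which did not differ beyond their spread, then EP300 (8.39 ± 1.3), CREBBP (5.84 ± 0.77), KAT8 (5.02 ± 0.34), KAT7 (2.90), KAT6A (2.31 ± 0.29), KAT2B (1.57 ± 0.21) and KAT6B (1.40 ± 0.015) (SD, n = 2). CREBBP and KAT8, and KAT2B and KAT6B, were neighbours whose ranges of mean ± SD overlapped. In TNPR the order began with HAT1 (24.9 ± 0.41) and KAT2A (11.9 ± 0.58), and KAT5 followed at 4.50 ± 0.13. KAT6B was again the lowest, at 0.282 CPM per kb. KAT8 ranked above CREBBP in all 4 SCFA groups, the reverse of Ctrl and TN. In TNBU, as in Ctrl, their ranges of mean ± SD overlapped (2.91 ± 0.11 for KAT8 and 2.37 ± 0.55 for CREBBP).

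The subunits of the complexes in which these enzymes act were counted beside them. Of 55 subunits of the SAGA/ATAC, NuA4/TIP60, MOZ/MORF and HBO1, and MSL and NSL complexes, 26 were called down and 2 up in PRTN vs TN, 26 and 0 with BUTN, 30 and 2 with TNPR and 30 and 1 with TNBU. The shares called down over all tested genes were 16.7%, 14.8%, 16.9% and 16.5%, and 23.2%, 21%, 24.8% and 24.7% of genes of 10 CPM or more. The median log2 fold changes of the subunits were -0.56, -0.55, -0.74 and -0.70, beside 0.09, 0.08, 0.12 and 0.09 over all genes. Over genes of 10 CPM or more the medians were -0.11, -0.13, -0.12 and -0.14. In TN vs Ctrl none of the subunits was called. Called up against TN were 5824, 5620, 6067 and 6094 of the 24342 tested genes in PRTN, BUTN, TNPR and TNBU. These shares, counts and medians of the tested genes apply to each list that follows.

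Of the 20 SAGA and ATAC subunits, which surround KAT2A or KAT2B, 10, 10, 12 and 12 were called down in PRTN, BUTN, TNPR and TNBU, and none up, with medians from -0.76 to -0.58, beside 14.8% to 16.9% of all genes called down. TAF6L, a SAGA core subunit, fell from 15.9 ± 1.5 CPM in TN to 6.33 to 7.16 CPM (log2 fold changes of -1.33 to -1.15), although KAT2A itself was not called. KAT14, a second acetyltransferase within ATAC, read 15.4 ± 2.2 CPM in TN and 6.99 to 8.55 CPM with SCFAs (-1.12 to -0.83). TADA2A, an adaptor of the enzyme module, and TADA1 fell by 0.89 and 0.83 on the log2 scale on average over the 4 groups.

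Of the 16 NuA4/TIP60 subunits, 4, 4, 5 and 5 were called down and 2, 0, 2 and 1 up, with medians from -0.42 to -0.32. This count was near the 21% to 24.8% called down among genes of 10 CPM or more. The scaffold EPC1, which connects KAT5 to the rest of the complex, fell from 27.4 ± 1.4 CPM in TN to 5.62 to 7.26 CPM (log2 fold changes of -2.29 to -1.93, adjusted p from 3.88e-08 to 1.12e-07). Its paralogue EPC2 fell from 40.5 ± 1.7 to 11.6 to 14.6 CPM (-1.80 to -1.47), and the bromodomain subunit BRD8 from 76.7 ± 5.6 to 31.0 to 34.6 CPM (-1.31 to -1.15). RUVBL2, an ATPase shared with other chromatin complexes, went the other way, from 104 ± 11 to 155 to 181 CPM, and was called up in PRTN, TNPR and TNBU (log2 fold changes of 0.71 to 0.79).

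Of the 8 scaffold and accessory subunits of the MOZ/MORF and HBO1 complexes, 5, 4, 5 and 5 were called down and none up (medians -0.93 to -0.67). JADE2, a scaffold that directs KAT7 towards histone H4, fell from 58.4 ± 0.95 CPM in TN to 8.56 to 14.9 CPM (log2 fold changes of -2.79 to -1.98), the largest fall among the subunits named here. JADE1 fell from 123 ± 5.8 to 58.2 to 62.4 CPM and JADE3 by 1.02 on the log2 scale on average. BRPF3, a scaffold that directs KAT7 towards histone H3, fell from 88.6 ± 1.4 to 32.8 to 39.0 CPM (-1.43 to -1.18).

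Of the 11 MSL and NSL subunits, which surround KAT8, 7, 8, 8 and 8 were called down and none up (medians -0.81 to -0.73). HCFC1, a large chromatin scaffold, fell from 176 ± 19 CPM in TN to 62.2 to 72.1 CPM (log2 fold changes of -1.50 to -1.28). MSL1, the scaffold of the MSL complex, fell from 83.3 ± 3.0 to 33.3 to 38.1 CPM, and KANSL1, that of the NSL complex, from 55.5 ± 2.0 to 24.4 to 29.1 CPM. PHF20, a methyl-lysine reader of NSL, fell by 1.09 on the log2 scale on average.

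**Figure D3:**
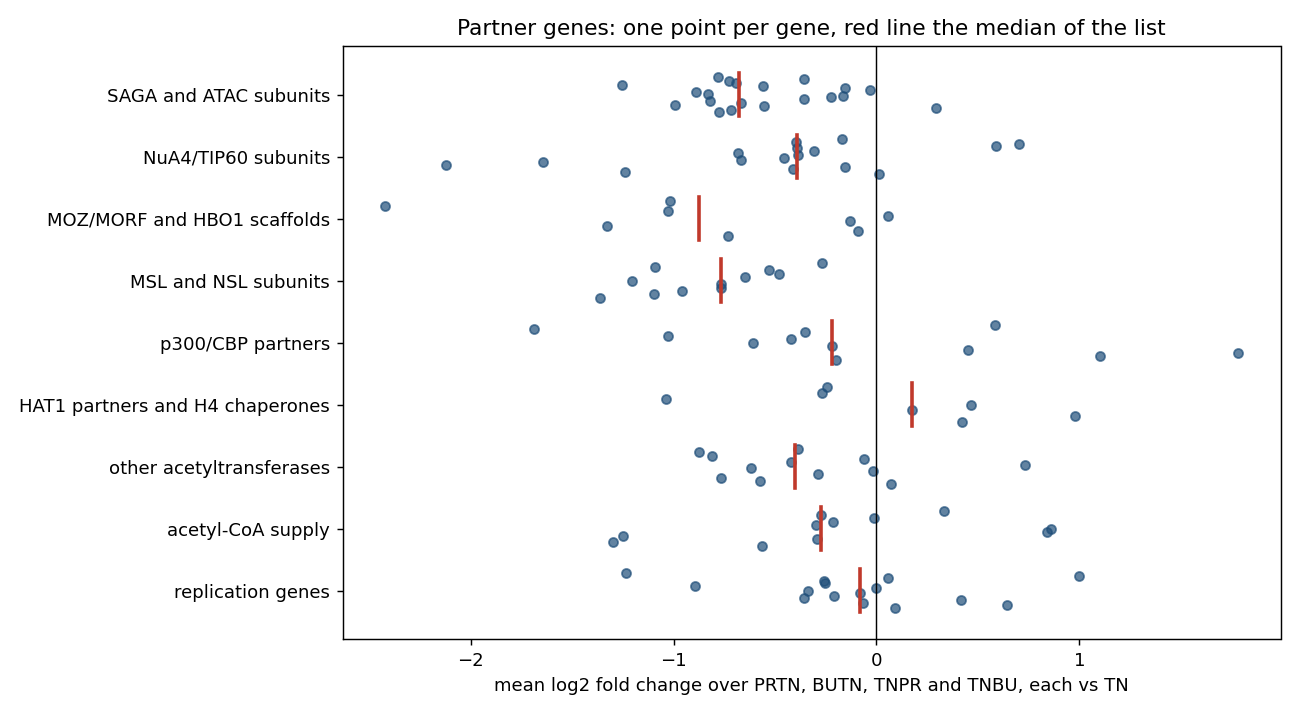
Mean log2 fold change over PRTN, BUTN, TNPR and TNBU, each vs TN (horizontal axis), of every gene in 9 lists of partners and related genes, with 1 point per gene and a red line at the median of the list. The 4 complex lists at the top lie mostly below 0, from JADE2 at -2.42 to RUVBL2 at 0.70, whereas the lists of p300/CBP partners, HAT1 partners and replication genes lie on both sides.

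The 11 partners of p300 and CBP did not share a direction, with 3, 2, 3 and 3 called down and 4, 1, 3 and 2 up. CITED2, which binds the same domain of p300/CBP as hypoxia-inducible factor, was called down by TNF-α (from 327 ± 2.9 CPM in Ctrl to 210 ± 4.4 in TN, log2 fold change -0.64, adjusted p = 4.52e-05) and was raised with SCFAs to 661 to 751 CPM (1.66 to 1.84 against TN, adjusted p from 1.74e-10 to 5.06e-10). NCOA2, a steroid receptor coactivator, fell from 48.3 ± 0.60 to 13.8 to 17.0 CPM (-1.81 to -1.51), and CRTC3, a coactivator of CREB, from 28.02 ± 2.7 to 12.02 to 15.6 CPM (-1.22 to -0.84). CITED1 was called up in PRTN, TNPR and TNBU, with group means of at most 0.475 CPM.

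Among the 7 HAT1 partners and H4 chaperones, 1 gene was called down and 1 up in each SCFA comparison. NASP, a histone chaperone that protects H3 and H4, fell from 381 ± 21 CPM in TN to 174 to 206 CPM (log2 fold changes of -1.13 to -0.89), and ASF1B, the chaperone that hands H3 and H4 to the assembly factors, was raised from 62.3 ± 1.2 to 115 to 132 CPM (0.89 to 1.08). Replication genes, a list of 15 looked at beside HAT1, gave 2, 2, 2 and 2 down and 2, 1, 2 and 2 up, among them TYMS (-1.28 to -1.18) and RRM2 (0.91 to 1.10), both enzymes of nucleotide synthesis. The helicase subunit MCM7 fell by 0.89 on average over the 4 groups, and CDC6, a loader of that helicase, was called up in 3 groups (0.64 on average).

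Of 12 other acetyltransferases, 4, 3, 5 and 5 were called down and 1 up in each SCFA comparison. In BUTN this was close to the 21% called down among genes of 10 CPM or more. NAT10, which acetylates RNA, fell from 53.2 ± 2.5 CPM in TN to 27.3 to 31.1 CPM (log2 fold changes of -0.97 to -0.77), and CLOCK, the circadian factor, from 30.1 ± 2.7 to 16.4 to 19.1 CPM (-0.87 to -0.68). NAA60 fell by 0.81 on average. NAA10, the catalytic subunit of the main N-terminal acetyltransferase, was raised from 69.3 ± 1.4 to 105 to 123 CPM (0.60 to 0.83).

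Of 11 genes of acetyl-CoA supply, the substrate of all these enzymes, 2, 2, 2 and 3 were called down and 1, 1, 2 and 2 up. The down calls in PRTN, BUTN and TNPR were near the shares over all genes (14.8% to 16.9%). Those in TNBU stood beside 16.5% of all genes and 24.7% of genes of 10 CPM or more. ACSS2, which makes acetyl-CoA from acetate in the cytosol and nucleus, was raised from 30.7 ± 0.16 CPM in TN to 50.9 to 59.3 CPM (log2 fold changes of 0.73 to 0.95), and its mitochondrial counterpart ACSS1 fell from 11.5 ± 0.25 to 4.48 to 5.51 CPM (-1.36 to -1.06). ACAT2, a cytosolic thiolase that uses acetyl-CoA, fell from 165 ± 10 to 61.5 to 72.6 CPM (-1.43 to -1.19).

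The genes whose pattern over the 12 libraries was most like that of KAT6B, by the root mean square difference of centred log2 CPM among 14983 genes, were SSC5D (0.0908), PLXNB1 (0.1004) and ALDH16A1 (0.101). PLXNB1, a semaphorin receptor, read 105 ± 0.34 CPM in Ctrl, 81.4 ± 5.4 in TN and 17.5 to 24.1 in the SCFA groups. Most like HAT1 were RAB1A (0.0287), CACUL1 (0.0374) and GDAP2 (0.0375). RAB1A, a GTPase of the early secretory pathway, read 161 ± 7.5 CPM in Ctrl, 174 ± 3.6 in TN and 210 to 226 in the SCFA groups.

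Markers of other cell types were read beside these results. The summed level of 6 leukocyte markers was 27.2 to 36.7 CPM in Ctrl, TN, PRTN and TNPR and 41.2 to 52.9 CPM in BUTN and TNBU, nearly all of it CD68 (23.1 to 48.8 CPM), with PTPRC at most 0.152 and CD3E at most 0.0640 CPM. The 5 endothelial markers summed to 0.143 to 0.287 CPM in Ctrl and TN and to 2.29 to 3.87 CPM in the SCFA groups, with KDR at most 0.0939 CPM. The 5 fibroblast and mesangial markers, mostly COL1A1 and LUM, summed to 52.9 to 59.8 CPM in Ctrl and TN and to 204 to 255 CPM in the SCFA groups. The epithelial markers summed to 2004 to 2093 CPM in Ctrl and TN and to 2110 to 2717 CPM with SCFAs, most of it KRT8 and KRT18. Their members went both ways, with 4 of 14 (EPCAM, CDH2, PAX8 and GGT1) called down in each SCFA group vs TN, and 9, 9, 8 and 9 called up in PRTN, BUTN, TNPR and TNBU. Of the tested markers of the other lists, 2 to 3 of 4 leukocyte, 4 of 4 endothelial and 3 to 4 of 5 fibroblast and mesangial genes were called up against TN, and 1 of the latter (DCN) was called down. Over all 24342 tested genes, 5824, 5620, 6067 and 6094 were called up in PRTN, BUTN, TNPR and TNBU. The part of all these markers in the acetyltransferase values was not tested.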

How the data were processed

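mRNA from 12 HK2 cultures was sequenced as stranded libraries. Reads were aligned to GRCh38 by the authors with STAR (2.6.1a per the labels' processing notes), who deposited expected counts per gene, estimated with RSEM on GENCODE, neither scaled nor filtered, of which 19.3% are not whole numbers. The strand setting of RSEM is not given in the sources used here. Groups came from the label of each library, and replicates are biological duplicates per the labels.

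Here the counts were tested with limma 3.58.1 (R 4.3.3) after the study's own methods. Genes were kept where the geometric mean count (1 added before and removed after averaging the logarithms) reached 1 (24342 of 58278), TMM factors came from edgeR 4.0.16 (0.913 to 1.06), and voom weights with 1 mean per group gave log2 fold changes, Benjamini-Hochberg adjusted p and calls over 1.5-fold at an adjusted p under 0.05. edgeR's quasi-likelihood test and DESeq2 1.42.0 were run on rounded counts as alternatives. Intervals and the limit of 3 counts cover counting error and these replicates only. Positions and merged exon lengths came from GENCODE v44 (GRCh38), and promoter sequences from RefSeq (GRCh38.p14).

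The members and the partner lists were chosen with earlier results of these data known. All members are named, and from each partner list the up to 4 genes with the largest mean change over the 4 SCFA groups, among those called the same way in at least 3, are named. Other alternatives were the scaling, the gene filter, the fold threshold, fits of only the groups compared, the replicate number as a block and each replicate left out. Libraries with the same replicate number hardly deviated together (correlations of -0.0347 to 0.0658 over 15 pairs of groups). With 2 replicates per group, these values cannot exclude that the numbers pair the samples.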

Additional observations from a re-analysis of the deposited data

How the results depend on the processing

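Of 1430 log2 fold changes of single members, over the 11 comparisons and all alternatives other than the fold thresholds, 1416 kept their call or lack of one, 7 lost the call, 7 gained it and no called value changed sign; 49 values that were not called did. The count of members called in SCFA comparisons depended on the fold threshold by construction. Over 2-fold it was 3 in PRTN vs TN, BUTN vs TN, TNBU vs TN, PRTN vs Ctrl and TNBU vs Ctrl, and with no fold threshold it was 9 in TNPR vs TN, HAT1 and KAT2A among them as higher. Leaving out 1 replicate in turn gave 6 in PRTN vs TN in each case, 5 to 6 in BUTN vs TN and TNPR vs TN, 5 to 7 in TNBU vs TN and 6 to 7 in TNBU vs Ctrl, with the libraries concerned named above. A lone replicate was then assumed to vary like the other groups. With the replicate number as a block the counts were 6, 5, 5 and 6 against TN, as without it, and the block changed no other call of a member. edgeR and DESeq2 gave the main counts in all 11 comparisons. With 2 replicates per group, the standard error of a log2 fold change against TN ran from 0.0598 (HAT1 in PRTN) to 0.161 (KAT6A in TNBU), so small changes of KAT6A, EP300 and KAT2B could not be detected.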
